A study of Bos taurus with 3 samples.

Results

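Complement genes were followed in BFF116 cells, a culture of bovine fetal fibroblasts that supplies the nuclei in cloning by nuclear transfer into oocytes. The 9 genes were taken by symbol, with no threshold on their values, but with earlier results of these data known. They were the proteases C1R and C1S, the central component C3 and the alternative-pathway proteases CFB and CFD. The terminal components C5 and C7 and the membrane regulators CD46 and CD59 completed the set. Of these 9, 8 had a row among the 31903 genes of the count table, and CFD was not analysed here. The study has a single group of 3 libraries, each made from about 70000 cells after 48 h of serum starvation, which synchronizes the cell cycle before nuclear transfer. All 3 libraries share the starvation and the cDNA amplification, no unstarved or treated cells were measured, and no comparison between groups was made. The labels call the libraries biological replicates without naming separate cultures or animals, and p-values then measure only the spread between these samples, part of which can be technical.

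Complement is a cascade of plasma proteins that marks cells and microbes for removal and can end in a pore in the target membrane. It starts through the classical pathway (C1q with the proteases C1r and C1s), the lectin pathway (mannose-binding lectin, ficolins and collectins with MASP proteases) or the alternative pathway (C3b with factor B and factor D), and all routes meet at C3. C5 to C9 then form the membrane attack complex, and host cells protect themselves with regulators such as CD46 and CD59. The liver makes most of the circulating proteins, and fibroblasts are among the cells known to make part of the set locally.

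Gene counts summed to 8608350 reads in replicate 1, 4842331 in replicate 2 and 7122651 in replicate 3. Levels are given as CPM, gene reads scaled to a common library total with TMM factors, as mean ± SD of the 3 libraries (n = 3). The term measured is used for a gene that reached 1 CPM in all 3 libraries. Of the fibroblast genes listed, 13 of 13 were measured, among them COL1A1, DCN, PDGFRA and VIM. The list was chosen with earlier results of these data known, so this count is a description and does not test the fibroblast label. Transcript lengths were not used here, and a longer transcript yields more reads, so CPM values of different genes are not a ranking of transcript numbers. Differences between libraries within a gene, and between libraries in the ratio of a gene pair, do not depend on length.

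Of the 8 complement genes with a row, 6 were measured (C1R, C1S, C3, CFB, CD46 and CD59), beside 34.6% of all genes of the table. The remaining genes, C5 and C7, had 0 reads in every library. The measured members were thus the C1 proteases, C3, CFB and the membrane regulators, with the terminal components at 0. They do not make up the full classical route, since the chains of C1q had 0 reads. Whether the alternative route was complete cannot be told, because CFD was not analysed here. The median over the 8 genes was 16.6 CPM, against 0.134 CPM over all genes of the table and 4.96 CPM over genes with a read. Because the genes were chosen with earlier results of these data known, this median and the count of 6 are descriptions only. Of the 41 further complement genes with a row, 29.3% were measured. CD46 supplied most of the reads of the set: 80.7% in replicate 1, 76.0% in replicate 2 and 73.9% in replicate 3. The summed level of the set was 590 ± 54.5 CPM with CD46 and 135 ± 8.88 CPM without it.

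**Figure D1:**
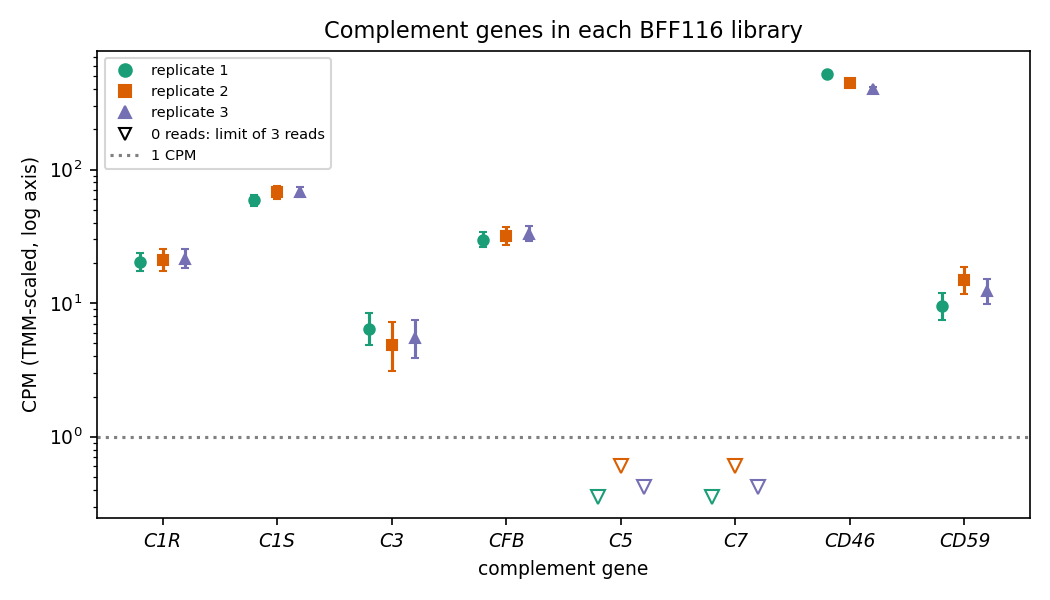
CPM (log axis) of the 8 complement genes in replicates 1 to 3, with exact 95% Poisson intervals of the reads as bars; open triangles mark 0 reads, drawn at the limit of 3 reads, and the dotted line is 1 CPM. The intervals of C1R, C3 and CFB overlap between all libraries, those of CD46, at 521, 445 and 397 CPM, do not, and C5 and C7 have 0 reads in each.

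C1R and C1S encode the serine proteases that sit on C1q, C1r activating C1s and C1s cleaving C4 and C2. C1R had 171, 105 and 153 reads in replicates 1 to 3, which correspond to 20.3, 21.2 and 21.5 CPM (mean 21.0 ± 0.624). These levels lay within 1.06-fold of one another, and their exact 95% Poisson intervals, from 17.3 to 25.6 CPM at the widest, overlapped. C1S had 495, 334 and 484 reads, or 58.8, 67.3 and 68.1 CPM (mean 64.7 ± 5.16). Replicate 1 was the lowest and the spread was 1.16-fold, with overlapping intervals.

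The proportion of the C1 proteases was similar in the 3 libraries, though a difference between them was not tested. C1S had 2.89 reads per read of C1R in replicate 1 (exact 95% binomial interval 2.43 to 3.46), 3.18 in replicate 2 (2.55 to 4.0) and 3.16 in replicate 3 (2.63 to 3.82). The log2 ratio of C1R over C1S was -1.62 ± 0.08, the smallest SD of the 6 gene pairs computed. Each other pair includes C3, SERPING1 or CD59, which have fewer reads than C1R, so its counting error is larger. The order of these SDs is therefore no measure of how closely the genes of a pair follow each other. The genes are neighbours in the RefSeq annotation of ARS-UCD2.0, and the intervals of their ratio overlapped between all libraries.

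The other genes of the classical pathway were much less covered. C1QA, C1QB and C1QC, which encode the chains of C1q that recognise antibody and surfaces, had 0 reads in every library. C2, the protease cleaved by C1s, had 0, 0 and 2 reads. C4A, the C4 gene of the table, was measured at 2.73, 5.44 and 7.32 CPM (23, 27 and 52 reads), a 2.68-fold range with replicate 1 lowest. C1RL, a C1r-like protease gene, had 2, 1 and 16 reads. Thus 1 of 6 further classical-pathway genes was measured, and the proteases of C1 had reads where the chains of C1q had none. Genes with near-identical copies, as C4 has in many mammals, may have lost reads, because reads with several alignments are not in the gene counts.

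C3 is cleaved by the convertases of every pathway and its fragment C3b labels surfaces. C3 had 54, 24 and 39 reads in replicates 1 to 3, or 6.41, 4.84 and 5.49 CPM (mean 5.58 ± 0.793). Replicate 1 was the highest and replicate 2 the lowest, 1.33-fold apart, while the intervals (4.82 to 8.37 CPM in replicate 1 and 3.10 to 7.20 CPM in replicate 2) overlapped. With 24 reads in the shallowest library, C3 was the least covered of the 6 measured genes, and smaller differences between libraries were not detectable at this depth.

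CFB encodes factor B, which binds C3b and supplies the protease of the alternative-pathway convertase. CFB had 252, 159 and 235 reads, or 29.9, 32.0 and 33.1 CPM (mean 31.7 ± 1.60), a 1.10-fold range with overlapping intervals. CFB had 4.67 reads per read of C3 in replicate 1 (exact 95% binomial interval 3.47 to 6.38), 6.62 in replicate 2 (4.30 to 10.6) and 6.03 in replicate 3 (4.28 to 8.69). The intervals overlapped, which does not exclude a difference between libraries in the proportion of C3 to CFB, and such a difference was not tested. In the annotation of ARS-UCD2.0, CFB lies between C2 and NELFE, a transcription elongation gene with 316, 258 and 424 reads. The strand setting of the counts is not given in the sources used here, and a contribution of reads from NELFE to CFB was not tested. CFP, which encodes properdin, the stabiliser of the alternative-pathway convertase, had 9, 2 and 5 reads.

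C5 encodes the component whose cleavage starts the terminal pathway, and C7 encodes a component that anchors the growing complex in the membrane. Both had 0, 0 and 0 reads, which allows up to 0.356, 0.605 and 0.422 CPM in replicates 1 to 3 at a limit of 3 reads, provided that reads could be assigned to these genes. In the annotation, C5 lies between TRAF1, with 7, 9 and 30 reads, and CNTRL, with 226, 156 and 157. RAB14, beyond CNTRL, had 1334, 817 and 1031. C7 lies between CARD6, with 49, 18 and 48 reads, and MROH2B, with 0 in each. Of the 5 other terminal-pathway genes, C6, C8A and C8B also had 0 reads and C9 had 4, 2 and 0. C8G, the gamma chain of C8, was the 1 measured member, at 1.54, 1.61 and 2.53 CPM (13, 8 and 18 reads).

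CD46 encodes membrane cofactor protein, which lets factor I cleave C3b and C4b on the cell's own surface and which is known in cattle as a receptor of bovine viral diarrhoea virus. CD46 had 4390, 2206 and 2823 reads, or 521, 445 and 397 CPM (mean 454 ± 62.7). Replicate 1 was highest and replicate 3 lowest, 1.31-fold apart, and their exact Poisson intervals (506 to 537 and 383 to 412 CPM) did not overlap. In CPM, CD46 exceeded 98.2% of the genes with a read, a position that also carries its transcript length. The differences of CD46 between libraries exceeded counting error, while the CV of 13.8% was near the median of 12.1% for 131 genes within 1.2-fold of its mean reads.

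CD59 encodes protectin, a membrane-anchored protein that blocks the joining of C9 to the membrane attack complex. CD59 had 80, 74 and 87 reads, or 9.5, 14.9 and 12.2 CPM (mean 12.2 ± 2.71). Replicate 2 was highest and replicate 1 lowest, a 1.57-fold range and the widest of the 6 measured genes. The intervals of these libraries met narrowly (11.7 to 18.7 CPM in replicate 2 and 7.54 to 11.8 CPM in replicate 1).

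The order of the libraries therefore differed between the membrane regulators, with replicate 1 highest for CD46 and lowest for CD59. CD46 had 54.9 reads per read of CD59 in replicate 1 (exact 95% binomial interval 44.0 to 69.3), 29.8 in replicate 2 (23.6 to 38.1) and 32.4 in replicate 3 (26.2 to 40.6). Replicate 1 lay outside the intervals of replicates 2 and 3, which overlapped. The log2 ratio of CD59 over CD46 was -5.23 ± 0.48, the largest SD of the 6 pairs. An exact sign-flip test of 3 libraries cannot give a p below 0.25, so no p is given for the pairs.

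**Figure D2:**
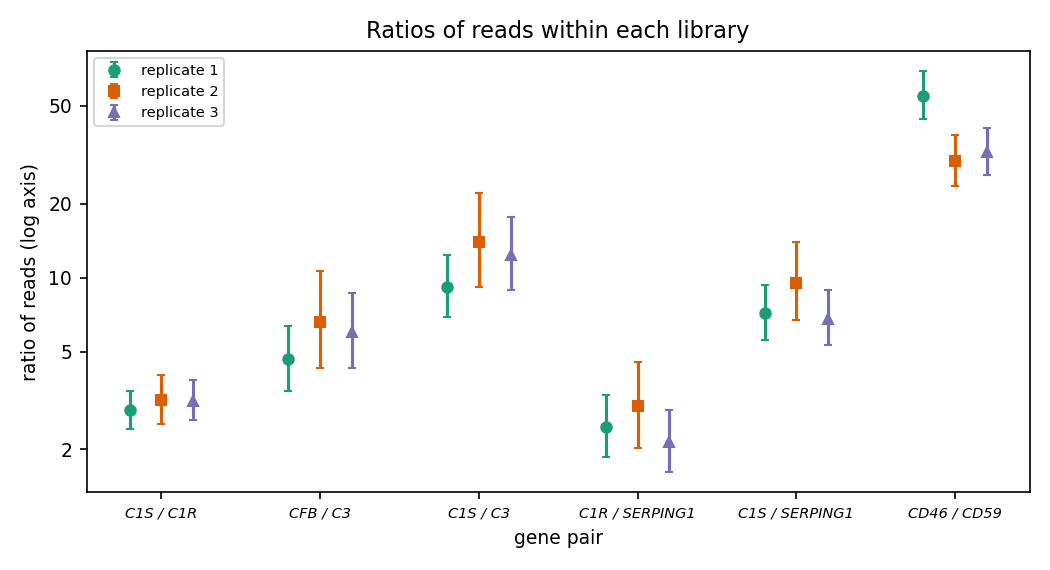
Ratio of reads (log axis, not corrected for transcript length) of 6 gene pairs within replicates 1 to 3, with exact 95% binomial intervals as bars. C1S over C1R stays between 2.89 and 3.18, whereas CD46 over CD59 is 54.9 in replicate 1 and 29.8 and 32.4 in replicates 2 and 3.

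SERPING1, which encodes the C1 inhibitor that shuts down C1r and C1s, was measured at 8.20, 7.05 and 9.99 CPM (69, 35 and 71 reads, mean 8.41 ± 1.48). C1S had 7.17, 9.54 and 6.82 reads per read of SERPING1 in replicates 1 to 3, and C1R had 2.48, 3.00 and 2.15. All of these intervals overlapped between libraries, and a shift of proteases against their inhibitor was not tested. The log2 ratios were 2.96 ± 0.26 for C1S and 1.33 ± 0.24 for C1R. C1S had 9.17 reads per read of C3 in replicate 1, 13.9 in replicate 2 and 12.4 in replicate 3, also with overlapping intervals.

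Other soluble regulators were uneven. CLU, the gene of clusterin, which binds terminal complexes and also acts outside complement, was measured at 107 ± 5.73 CPM. PROS1, the gene of protein S, a coagulation cofactor that also binds C4b-binding protein, was measured at 83.4 ± 14.9 CPM. CFI, the protease that uses CD46 as a cofactor, had 7, 1 and 0 reads. VTN, CPN1 and CPN2 had 0 reads, so 3 of 9 soluble regulators were measured.

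Among further membrane regulators 2 of 5 were measured, THBD (thrombomodulin) at 7.89 ± 1.72 CPM and CSMD2 at 5.79 ± 0.821 CPM. SUSD4 had 5, 8 and 6 reads, CSMD1 had 0, 1 and 0, and CSMD3 had 0. CD55, CR1 and CR2, which belong to the same family of regulators as CD46, were not analysed here.

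Of the 7 genes with a row that were listed under the lectin pathway, 2 were measured, and whether each acts with MASP proteases was not tested. COLEC12, a membrane-bound collectin, stood at 179, 167 and 150 CPM (mean 166 ± 14.2). MASP2, a protease gene, stood at 24.9, 13.7 and 17.7 CPM. In the annotation it lies between SRM, with 310, 185 and 297 reads, and TARDBP, with 253, 133 and 256 reads. A contribution of reads from these neighbours to MASP2 was not tested. MASP1 had 30, 3 and 46 reads and MBL2 4, 2 and 4, while MBL1, COLEC10 and COLEC11 had 0. MASP1 was thus low in replicate 2, at 0.605 CPM, and at 3.56 and 6.47 CPM in replicates 1 and 3.

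Receptors for complement fragments on leukocytes were at or near 0. C5AR1, C5AR2, ITGB2, VSIG4 and CD93 had 0 reads in every library, and C3AR1 had 3, 0 and 2. The 3 of 9 receptor genes that were measured, LRP1 (1103 ± 304 CPM), CALR (373 ± 44.9 CPM) and C1QBP (36.9 ± 9.61 CPM), encode proteins with broad roles in endocytosis, protein folding and mitochondria. In all, 12 of the 41 further complement genes with a row were measured, or 29.3%, a share near the 34.6% of all genes, and 18 had 0 reads.

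**Figure D3:**
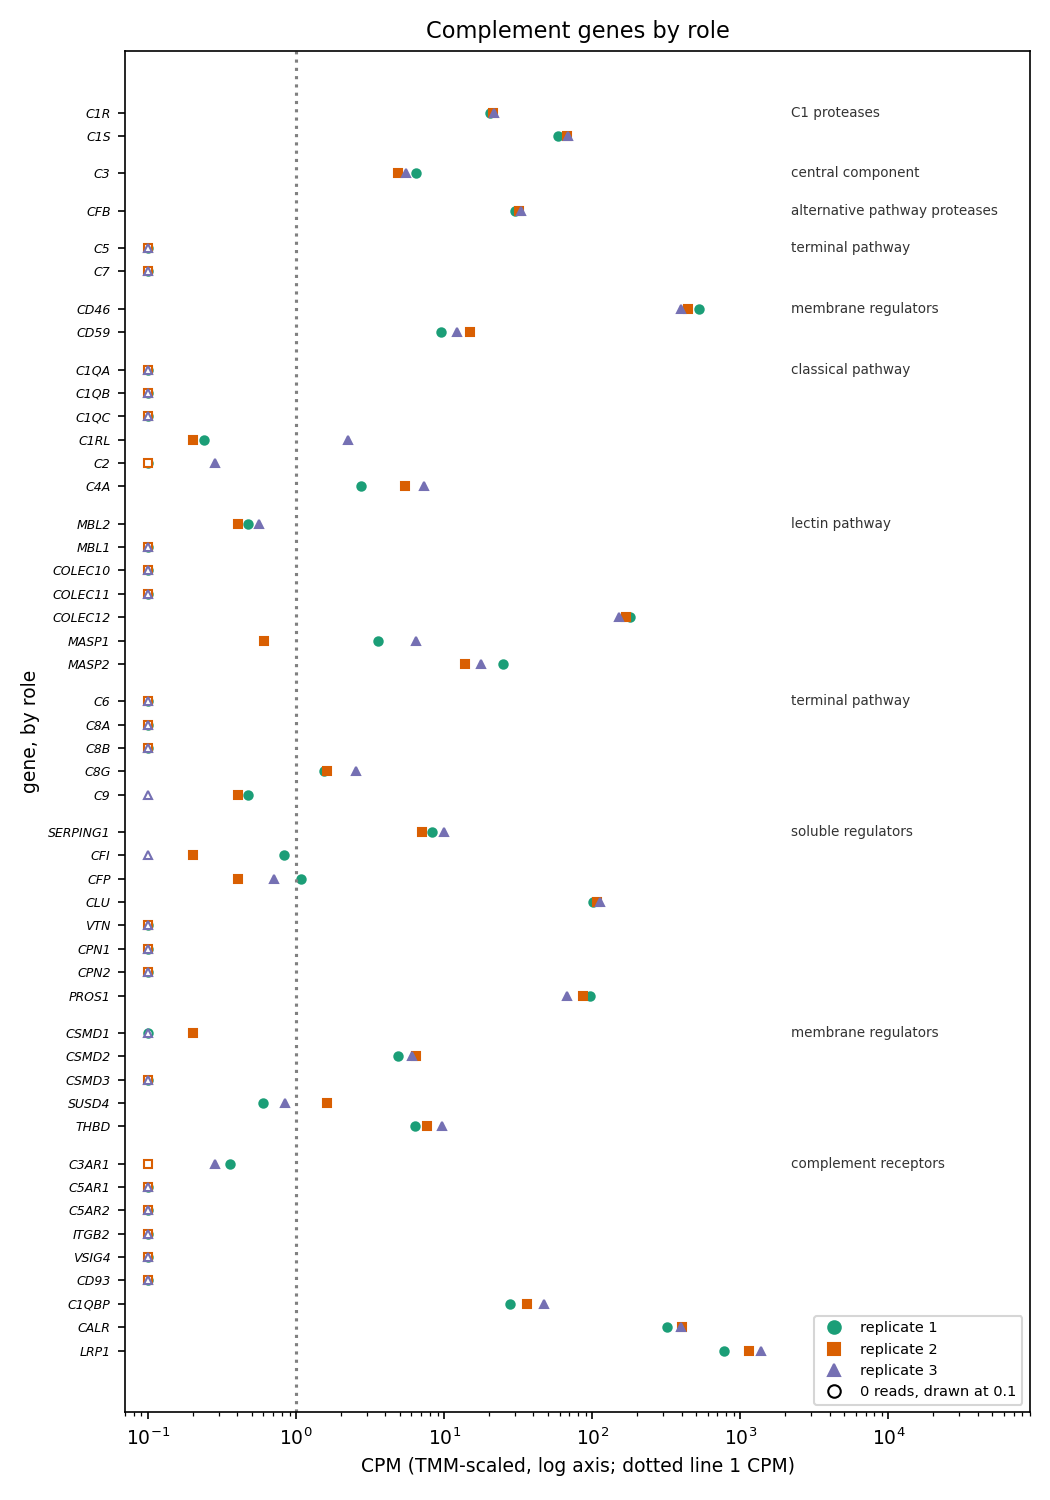
CPM (log axis) of the complement genes reported here, grouped by role, with 1 symbol per library; open symbols at 0.1 stand for 0 reads and the dotted line is 1 CPM. The C1 proteases, CFB and CD46 lie to the right of the line, whereas the C1q chains, C5, C6, C7, C8A and C8B lie at 0 reads.

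Marker genes of other cell types that could carry complement transcripts were counted as well. Of 10 hepatocyte genes 0 were measured, and APOA1, APOB, AHSG, SERPINA1 and TF had 0 reads, with a summed level of 1.54 to 2.42 CPM. Of 12 leukocyte genes 2 were measured (CD68 and LYZ), with a summed level of 4.84 to 11.2 CPM, and PTPRC, CD14, TYROBP, SPI1 and CD79A had 0 reads. The other 5 had some reads, most for FCER1G (26, 1 and 14), which was below 1 CPM only in replicate 2. Adipocyte genes had 4 of 8 measured (LPL, FABP4, PLIN1 and PPARG), with LEP and CEBPA at 0, and a summed level of 23.4 to 31.6 CPM. Endothelial genes had 3 of 9 measured (ERG, TEK and PECAM1), with KDR, TIE1, CLDN5, EMCN and ESAM at 0, and a summed level of 9.47 to 27.3 CPM. Epithelial genes had 0 of 10 measured, EPCAM, CLDN4, CLDN7 and GRHL2 had 0 reads, and the summed level was 2.14 to 4.84 CPM. In bulk RNA a few cells with many transcripts and many cells with few cannot be told apart, and the part of these cells in the complement levels was not tested.

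None of the 6 measured complement genes was called more variable between libraries than the trend for genes of like level. In edgeR's negative binomial fit over 10434 genes, the Pearson statistic called 0 of the 6 at an adjusted p under 0.05, beside 2 of all genes tested (0.0192%). At an unadjusted p under 0.05 there were 0 of the 6, beside 547 of the 10434 genes tested. The unadjusted p was 0.64 for CD59, 0.65 for CD46, 0.88 for C3, 0.90 for C1S, 0.96 for CFB and 0.99 for C1R, and the adjusted p was 1.0 for each. On simulated data the test called 5 of 100 genes raised 2-fold in 1 library and 59 of 100 raised 4-fold, so shifts of the size seen here (at most 1.57-fold) are below what it can call.

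The CV over libraries was 2.97% for C1R, 5.04% for CFB, 7.97% for C1S, 13.8% for CD46, 14.2% for C3 and 22.1% for CD59. Counting error alone gives about 8.55% for C1R, 6.96% for CFB and 16.9% for C3, so the spread of these genes was no larger than their read numbers allow. For C1S (4.86%), CD59 (11.2%) and CD46 (1.86%) the CV was above this value, and of these only CD46 had Poisson intervals that did not overlap. Whether the spread of C1S and CD59 goes beyond counting error was not tested. Among genes within 1.2-fold of the same mean reads, 1.26% of 951 genes had a smaller CV than C1R, 4.74% of 992 than CFB, 10.9% of 844 than C3 and 15.3% of 804 than C1S. The corresponding shares were 36.6% of 912 genes for CD59 and 57.3% of 131 for CD46. A CV of 3 libraries is itself imprecise, so these positions are a description.

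**Figure D4:**
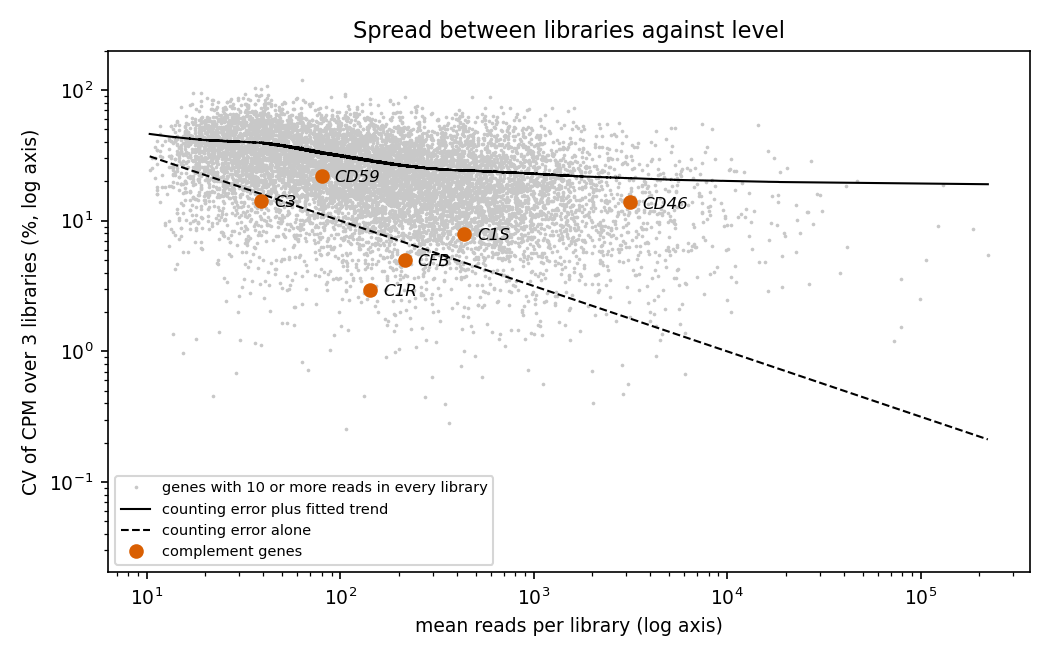
CV of CPM over the 3 libraries (log axis) against mean reads per library (log axis) for genes with 10 or more reads in every library (grey) and the 6 measured complement genes (orange); the dashed line is counting error and the solid line adds the fitted edgeR trend. All 6 lie below the solid line, and C1R, CFB and C3 lie below the dashed line.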

How the data were processed

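RNA of 3 BFF116 libraries was amplified as cDNA by a single-primer isothermal method and sequenced as single reads of 100 bases, per the labels' protocols. The authors deposited whole-number read counts per gene, and the submitters' processing notes name HTSeq 0.6.1, TopHat2 2.0.10 and bcl2fastq 2.18.0.12. The genome build was not given in the sources used here, nor were the annotation and the strandedness of counting. All 5 summary rows were kept out of library sizes: 58.9 to 62.0% of counted reads lay in no gene and 7.52 to 7.99% had several alignments. The table held 0 columns of other samples.

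CPM was computed with edgeR 4.0.16 in R 4.3.3, with TMM factors of 0.978, 1.02 and 0.998. Variability was tested on the genes that had at least 10 counts in each library (trended dispersion, chi-square with 2 degrees of freedom, Benjamini-Hochberg over all genes tested). In the simulation 1 of 10234 unchanged genes was called. Alternatives were DESeq2 1.42.0 size factors and dispersion trend, unscaled totals, other thresholds and each replicate left out. Intervals and the limit of 3 reads cover counting error only, since amplified reads are not independent molecules. Of 10 planned gene pairs 6 could be computed, without the planned coding lengths. Gene names and neighbours came from RefSeq (ARS-UCD2.0), which holds 22100 of the 31903 names. Members and gene lists were chosen with earlier results of these data known. Named were all members, list genes measured in every library and, in lists of at most 12 genes, those below. Some genes of the lists are counted in the totals but not reported here.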

Additional observations from a re-analysis of the deposited data

How the results depend on the processing

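Mean levels of the 6 measured complement genes moved by less than 1 SD and by at most 12.4% with other scaling or 1 replicate left out. C5 and C7 stayed at 0 in all of the 40 recomputations. Leaving out 1 of 3 values moves their mean by less than 1 SD in any case, apart from rescaling. Those recomputations therefore do not test stability. The count of 6 measured members was 6 under every alternative run, and that of other complement genes was 11 to 14 against 12. Pair ratios moved by less than 1 SD with 0.5 reads added. They also did so without any 1 replicate, an outcome fixed in advance for a mean of 3 values. No member was called variable under any alternative, whereas the number of all genes called, 2 as reported, was 5 with DESeq2 size factors and 0 to 6 with 1 replicate left out (6 without replicate 1, 0 without replicate 2 or 3). The cause was not tested. Ratios per coding or transcript length were not run, since lengths were not used here. No paired analysis was possible because the series has a single group. Depth limits the precision of genes with few reads, such as C3 with 24 in the shallowest library, and 0 reads of C5 and C7 over all libraries together allow up to 0.146 CPM.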

Other observations

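Genes of the cytokine signals that are known to act on complement transcription had receptors and transcription factors with reads, while the ligands were at or near 0 reads. Of 15 such genes with a row, 11 were measured (73.3%), beside 34.6% of all genes of the table. This list too was chosen with earlier results of these data known, so the share is a description only. The ligand genes TNF and IFNG had 0 reads, IL1B had 1, 1 and 1 and IL6 had 0, 0 and 4. Their receptor genes were measured: IL1R1 at 75.5 ± 4.73 CPM, TNFRSF1A at 69.7 ± 25.1 CPM, IFNGR1 at 50.9 ± 5.61 CPM, IFNGR2 at 87.0 ± 10.9 CPM and the shared interleukin 6 receptor chain IL6ST at 248 ± 131 CPM. IL6ST was uneven, with 395 CPM in replicate 1 against 205 and 145 CPM in replicates 2 and 3 (edgeR negative binomial fit, unadjusted p = 0.0030, adjusted p = 0.37, n = 3 libraries). The difference did not pass after adjustment.

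Transcription factors of these signals were measured as well, with STAT3 at 144 ± 10.5 CPM, RELA at 43.2 ± 7.39 CPM, NFKB1 at 28.3 ± 1.35 CPM, CEBPD at 23.6 ± 6.64 CPM and IRF1 at 12.6 ± 3.23 CPM. Replicate 1 was the lowest library for STAT3, RELA, NFKB1, CEBPD and IRF1.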
